A study of Sus scrofa with 6 samples.

Results

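Genes that shape the gonad were followed across the ovary and the uterus of the sow: the nuclear receptors NR5A1 and NR5A2, the transcription factor GATA4, the inhibin alpha subunit INHA, the activin-binding protein follistatin (FST) and the protease inhibitor SERPINE2. They were chosen by gene symbol, as all probe sets that the platform annotation gives to 1 of these symbols alone, which yielded 13 probe sets for 6 of the 6567 named genes measured. NR5A2 had 5 probe sets, NR5A1, GATA4 and FST had 2 each, and INHA and SERPINE2 had 1 each. RNA came from the ovary and from tissue labelled myometrium, the muscular wall of the uterus, of sows that were non-pregnant, in early pregnancy or in late pregnancy. Each pairing of tissue and stage had 1 array, 6 in all, so no group had replicates. The design counts 9 pigs, 3 per stage, and the labels do not say whether an array carried RNA of 1 pig or of several. They give no breed, age or day of pregnancy.

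The deposited values are MAS5 signals, a brightness per probe set on a linear scale. A signal of 81.7, the 40th percentile of all signals, was taken as the floor under which values were not ordered. The share of probe sets above it was 57.4% to 61.6% by array. GAPDH, probed at both ends of its transcript to gauge RNA quality, gave 3′ over 5′ ratios of 1.51 to 2.33. The tissue labels were set against marker genes. All 3 ovary arrays had 9 of 11 luteal and granulosa cell markers above the floor, and the receptor for luteinizing hormone, LHCGR, read 2480 to 3762 there. FOXL2, a transcription factor that defines granulosa cells, lay under the floor on every array. On the arrays labelled myometrium, called uterine arrays from here on, all 10 uterine epithelium markers lay above the floor. On the ovary arrays 7, 7 and 6 of these 10 did, in the order non-pregnant, early and late pregnant. The luteal and granulosa list had 2, 6 and 4 of its 11 markers above the floor on the uterine arrays in the same order. The summed signal of the uterine epithelium list was 3270 to 9160 on the ovary arrays and 57808 to 138759 on the uterine arrays. The summed signal of 9 smooth muscle markers was 38798 to 61915 on the ovary arrays and 19168 to 32037 on the uterine arrays, so the muscle markers were not higher under the muscle label. PAG6, a pregnancy-associated glycoprotein of the trophoblast, read 75.2, 22022 and 28500 on the uterine arrays in the order non-pregnant, early and late pregnant.

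NR5A1, also called steroidogenic factor 1, and NR5A2, also called liver receptor homologue 1, are orphan nuclear receptors that bind closely related DNA sequences and activate genes of steroid synthesis. GATA4 is a zinc finger factor of the somatic cells of the gonad that acts with them on many of the same genes. Inhibin is a dimer of the alpha subunit and a beta subunit. It is made by granulosa cells and, in some species, by the corpus luteum, and it lowers the secretion of follicle-stimulating hormone, whereas activin, a dimer of beta subunits alone, raises it. Follistatin binds activin and neutralises it. SERPINE2, or protease nexin-1, inhibits thrombin, urokinase and plasmin-like proteases and is made by granulosa cells.

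All 6 genes were higher in ovary than in the uterine tissue. Of the 13 probe sets, 10 passed the test and were higher in ovary, among them at least 1 for each gene, and the other 3 did not pass. For comparison, 2.84% of all 15882 tested probe sets were called higher in ovary and 2.23% higher in the uterine tissue. No call of the 13 remained when the early pregnant arrays were left out, where 11 still had an unadjusted p under 0.05, or without the filter on low signals, where 12 did. In both of these fits 0 of all tested probe sets passed in either direction, so the loss was not particular to the 13. The tissues were compared by limma with an additive fit of tissue and stage, with p-values adjusted by Benjamini and Hochberg over all tested probe sets and a threshold of 0.05. The median log2 difference, ovary minus uterine tissue, was 2.75 over the 13 probe sets and 0.01 over all tested probe sets. With values under the floor raised to it, 12 of the 13 had every ovary signal above every uterine signal, as had 14.6% of the tested probe sets. The exception was the dimmest NR5A2 probe set, whose non-pregnant ovary value lay under the floor. Where some uterine values lay under the floor, they were raised to it, so differences and folds that use them are lower bounds. Probe sets were tested when at least 2 arrays lay above the floor. For 8 of the 13 these were ovary arrays alone, so a difference in that direction was built into their selection. They were all probe sets of NR5A1 and GATA4 and every NR5A2 probe set but the brightest. The calls of NR5A1 and GATA4 are thus all of this kind. Arrays of 1 tissue differ in stage, so the p-values reflect how well 3 stages agree, not how animals vary. In whole tissue, fewer cells of a type and less RNA per cell cannot be told apart.

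**Figure D1:**
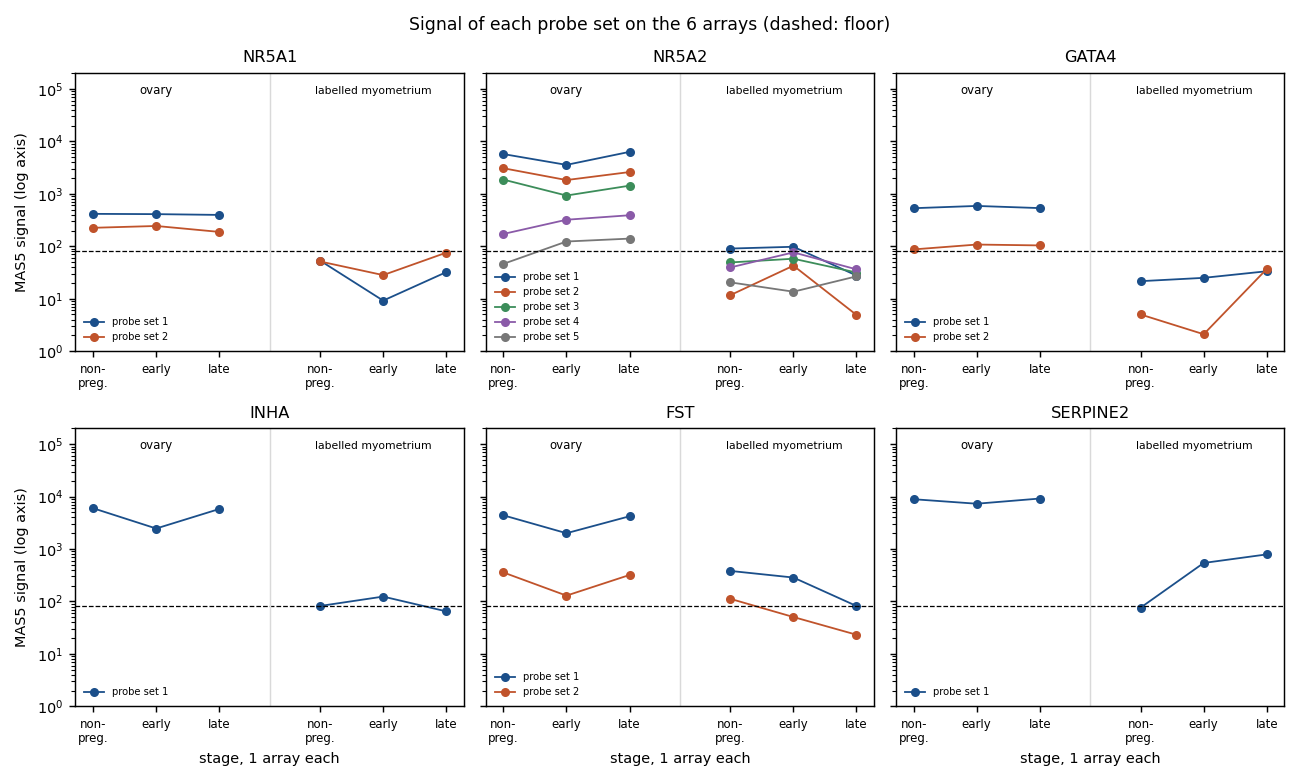
MAS5 signal (log axis) of the 13 probe sets of the 6 genes on the 3 ovary arrays and, to their right, the 3 arrays labelled myometrium, each 1 array per stage, with the probe sets of a gene numbered from the brightest and the floor of 81.7 dashed. Every ovary point lies above all uterine points of the same probe set. Ovary points also lie above the floor, except the non-pregnant point of the dimmest NR5A2 probe set, which lies under it. INHA and FST dip at early pregnancy in ovary, and SERPINE2 is higher on both pregnant uterine arrays than on the non-pregnant one.

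NR5A2 was higher in ovary by 4 of its 5 probe sets. Its brightest probe set read 5741, 3572 and 6326 in the non-pregnant, early pregnant and late pregnant ovary, against 90.5, 97.9 and 27.7 on the uterine arrays in the same order. The ovary signals were all high, and the uterine signals lay close to the floor or under it. The log2 difference was 5.82 ± 0.31 (SE, limma adjusted p = 0.00358), which is at least 56.4-fold with the late pregnant uterine array set to the floor. The next 2 probe sets by brightness lay under the floor on all uterine arrays and were at least 30.0-fold and at least 16.6-fold higher in ovary (limma adjusted p = 0.00368 and 0.00715). The fourth was at least 3.41-fold higher (limma adjusted p = 0.0394), a call that ended when the arrays of any 1 stage were left out (limma adjusted p = 0.0564 to 0.312). Without both pregnant uterine arrays the third did not pass either (limma adjusted p = 0.0520). The dimmest read 46.2, 123 and 140.1 in ovary and at most 26.7 on the uterine arrays, and did not pass (limma adjusted p = 0.309). The probe sets of NR5A2 thus gave the same direction between tissues and different sizes. For all but the brightest, every uterine value was raised to the floor, so no opposite direction was possible.

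NR5A1 showed nearly the same signal at every stage in ovary. Its brighter probe set read 415, 411 and 397 in the non-pregnant, early pregnant and late pregnant ovary, against 53.3, 9.2 and 32.1 on the uterine arrays. No uterine value reached the floor. The gene was at least 4.99-fold higher in ovary (log2 difference 2.32 ± 0.26, SE, limma adjusted p = 0.0138). The other probe set read 188 to 244 in ovary and 28.2 to 75.5 on the uterine arrays and was at least 2.67-fold higher in ovary (limma adjusted p = 0.0314). Both calls ended with the floor at the 60th percentile, where the brighter probe set differed by 0.73 and the other was not tested. They also ended when the arrays of any 1 stage were left out, with limma adjusted p of 0.0513 to 0.177 for the brighter probe set.

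GATA4 also varied little with stage in ovary. Its brighter probe set read 533, 589 and 535 in ovary, against 21.6 to 33.4 on the uterine arrays, all of which lay under the floor. GATA4 was at least 6.75-fold higher in ovary (log2 difference 2.75 ± 0.28, SE, limma adjusted p = 0.0118). The dimmer probe set read 87.2 to 108 in ovary, just above the floor, and 2.1 to 36.9 on the uterine arrays. Its bound of 1.21-fold did not pass (limma adjusted p = 0.418), and it passed with the floor at the 25th percentile (log2 difference 1.51, limma adjusted p = 0.0402).

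Among the other GATA factors, GATA2 was called in the opposite direction and GATA6 leaned the same way as GATA4 without passing. GATA2, a regulator of trophoblast and uterine stroma, read 111, 282 and 117 in ovary, against 887, 811 and 1243 on the uterine arrays, and was 6.26-fold lower in ovary (log2 difference -2.65 ± 0.44, SE, limma adjusted p = 0.0326). GATA6, which overlaps with GATA4 in granulosa cells, read 1294, 1361 and 1228 in ovary, against 51.8, 504 and 314 on the uterine arrays. Its difference of 2.46 ± 0.53 (SE) did not pass (limma adjusted p = 0.0617). GATA3, a factor of the trophoblast and of several epithelia, read 67.0, 116 and 90.2 in ovary, against 59.2, 3168 and 2778 on the uterine arrays, and did not pass either (limma adjusted p = 0.138). The non-pregnant uterine array lay under the floor for GATA3, GATA4 and GATA6, and both pregnant ones lay above it for GATA3 and GATA6 but not for GATA4.

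Of the 28 genes listed as gonadal transcription factors, 12 were tested, and 4 were higher in ovary, 1 was higher in the uterine tissue and 7 did not pass. The list's median difference was 1.36. Besides NR5A1, NR5A2 and GATA4, FOXO1, a factor held in check by insulin and follicle-stimulating hormone signals, was 3.64-fold higher in ovary (limma adjusted p = 0.0295). GATA2 was the gene with the opposite call. CTNNB1, which encodes beta-catenin, CEBPB, a factor of the luteinizing granulosa cell, and CITED2 did not pass, with differences of -0.08, 0.26 and 0.08. CITED2 read 3371, 4657 and 1896 in ovary, against 904, 5474 and 5108 on the uterine arrays, so its difference averages stage pairs of opposite direction. CEBPB read 3420, 5121 and 7282 in ovary, against 2047, 6141 and 5965 on the uterine arrays. NR0B1, a repressor of NR5A1, lay under the floor on every array, with signals of at most 80.1. WT1, a factor of the early gonad and of uterine stroma, differed by 1.13 without passing (limma adjusted p = 0.195).

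INHA, the alpha subunit that distinguishes inhibin from activin, was higher in ovary at all 3 stages. Its single probe set read 6006, 2465 and 5803 in the non-pregnant, early pregnant and late pregnant ovary, against 82.1, 124 and 64.8 on the uterine arrays. The early pregnant ovary was the lowest of its tissue, and its signal was still far above the highest uterine one. The log2 difference was 5.55 ± 0.44 (SE, limma adjusted p = 0.0069), or at least 46.9-fold with the late pregnant uterine array set to the floor. Without both pregnant uterine arrays it was 5.75 and did not pass (limma adjusted p = 0.0515). Taken stage by stage, against a background of 8.74%, 12.4% and 12% of measured probe sets at 2-fold or more toward ovary, the ovary array exceeded the uterine array 73.2-fold in the non-pregnant, 19.9-fold in the early pregnant and at least 71.0-fold in the late pregnant pair.

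FST was higher in ovary and was measured above the floor on all 6 arrays. Its brighter probe set read 4400.3, 2005 and 4219 in ovary, against 383, 286 and 82.0 on the uterine arrays. The last value lay just above the floor. The log2 difference was 4.01 ± 0.56 (SE, limma adjusted p = 0.0216), a 16.1-fold higher level in ovary. FST did not pass without the non-pregnant arrays (limma adjusted p = 0.0811) or without both pregnant uterine arrays (log2 difference 3.13, limma adjusted p = 0.107). The stage pairs spread widely around it, with 11.5-fold in the non-pregnant, 7.01-fold in the early pregnant and 51.5-fold in the late pregnant pair. The second probe set read 358, 129 and 320.0 in ovary, against 112, 50.5 and 23.2 on the uterine arrays, and did not pass (log2 difference 1.43 ± 0.33, SE, limma adjusted p = 0.0747).

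The other tested genes of the inhibin, activin and follistatin system did not pass. Of 17 listed genes 11 were tested. INHA and FST passed with higher levels in ovary, the remaining 9 did not, and the list's median difference was 0.51. INHBA, the beta A subunit that joins INHA in inhibin A and forms activin A by itself, read 253, 365 and 425 in ovary, against 442, 316 and 378 on the uterine arrays, and the 2 tissues overlapped (log2 difference -0.14 ± 0.34, SE, limma adjusted p = 0.849). INHBB, the beta B subunit, lay under the floor on all 6 arrays, with signals of 2.0 to 35.9. SMAD4, the common partner of activated SMAD proteins, and the type 1 receptor ACVR1 differed by 0.88 and 0.51 without passing. BAMBI, a decoy receptor that dampens activin and BMP signals, differed by -1.45 without passing (limma adjusted p = 0.222). It read 483, 1691 and 2808 on the uterine arrays in order of stage.

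Among 19 genes of ovarian BMP and anti-Mullerian hormone signalling, 10 were tested, of which 1 was higher in ovary and 9 did not pass. That gene was AMH, the hormone of growing follicles, with signals of 226, 209.5 and 395 in ovary, against 9.1, 4.0 and 8.3 on the uterine arrays. AMH was at least 3.25-fold higher (limma adjusted p = 0.0348). All its uterine values lay under the floor, so it was tested through ovary arrays alone and only this direction was possible. The list's median difference was 0.11. ID1 and ID3, which BMP signals induce in many cells, differed by -0.46 and 0.15, and the receptor BMPR1B by 1.87, without passing. ID1 read 4472, 1392 and 1720.0 on the uterine arrays, higher on the non-pregnant array than on the pregnant ones.

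SERPINE2 was higher in ovary at every stage, and its uterine signal differed between the non-pregnant and the pregnant arrays. Its single probe set read 8919, 7322 and 9195 in ovary, against 76.4, 543 and 791 on the uterine arrays. The ovary arrays lay within 1.26-fold of each other, whereas the non-pregnant uterine array lay under the floor and both pregnant ones above it. The log2 difference was 4.69 ± 0.65 (SE, limma adjusted p = 0.0208), or at least 25.8-fold with the non-pregnant uterine array set to the floor. It was 3.65 without the non-pregnant arrays and 6.69 without both pregnant uterine arrays, and passed in both fits. The stage pairs gave at least 109-fold in the non-pregnant, 13.5-fold in the early pregnant and 11.6-fold in the late pregnant pair.

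Of 15 genes of plasminogen activation and its inhibitors, 8 were tested. SERPINE2, LRP8 and PLAT were higher in ovary and 5 genes did not pass, with a list median of 1.27. LRP8, a receptor of the lipoprotein receptor family, read 5140.0, 1738 and 2546 in ovary, against 199, 364 and 139 on the uterine arrays (log2 difference 3.71 ± 0.50, SE, limma adjusted p = 0.0193). PLAT, tissue plasminogen activator, was 3.77-fold higher (limma adjusted p = 0.0293). PLAU, or urokinase, differed by -1.02, TFPI2, an inhibitor of plasmin and of tissue factor complexes, by 1.43, and the thrombin receptor F2R by 1.11, none of which passed. SERPINB2, another inhibitor of urokinase, lay under the floor in ovary and read 66.7, 663 and 352 on the uterine arrays, so that it and SERPINE2 were both higher on the pregnant uterine arrays than on the non-pregnant one.

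**Figure D2:**
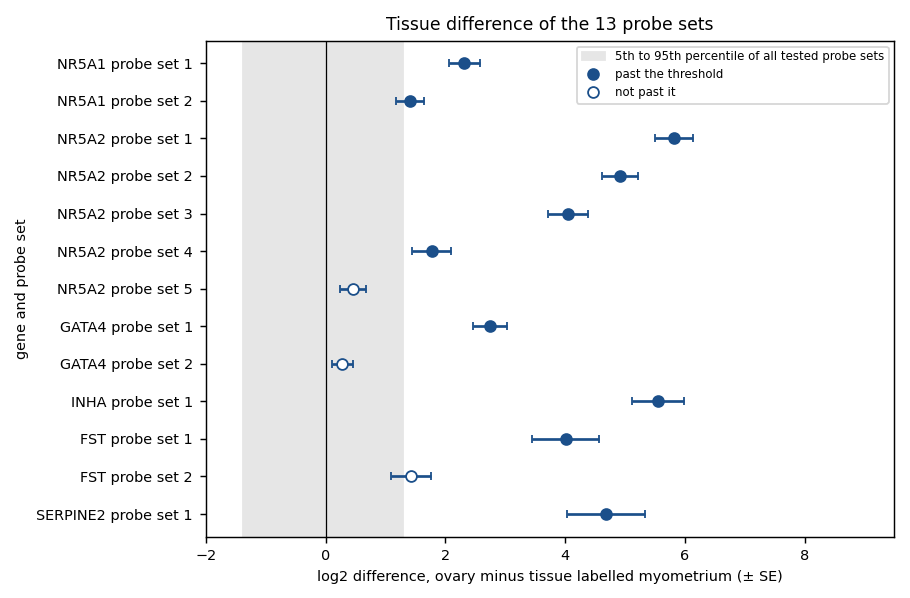
Log2 difference between ovary and tissue labelled myometrium for each of the 13 probe sets, with the SE of the additive fit to 6 arrays as bars and the central range of all 15882 tested probe sets, -1.38 to 1.29, shaded. The 10 filled points passed the test, and the 3 open ones, at 0.28, 0.46 and 1.43, did not.

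Within the ovary, INHA and FST read lower on the early pregnant array than on either other array, while NR5A1 and GATA4 stayed nearly level. These comparisons set 1 array against 1 array and have no test and no replicate check. INHA was 2.44-fold lower in early pregnant than in non-pregnant ovary, with 2465 and 6006. The brighter FST probe set was 2.19-fold lower, with 2005 and 4400.3, and the other FST probe set 2.77-fold lower, with 129 and 358. The third NR5A2 probe set by brightness was 2.01-fold lower, with 929 and 1870.3, close to the 2-fold line, which it did not reach with median centring (log2 ratio -0.98). In all, 4 of 13 probe sets, from 3 genes, were 2-fold or more lower and 0 were higher, whereas 2.15% of all 15237 probe sets measured were lower and 2.45% higher. The median log2 ratio was -0.28 over the 13 probe sets and -0.02 over all measured ones.

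The late pregnant ovary read close to the non-pregnant ovary for INHA, FST and SERPINE2, and the NR5A2 probe sets were divided. INHA and the brighter FST probe set had log2 ratios, late pregnant over non-pregnant, of -0.05 and -0.06. SERPINE2 had a ratio of 0.04 and the brightest NR5A2 probe set one of 0.14, while the fourth NR5A2 probe set was 2.27-fold higher and the dimmest at least 1.71-fold higher. Of the 13 probe sets 1 was 2-fold or more higher, against 2.92% of 15039 measured probe sets, and 0 were lower, against 3.65%. Between early and late pregnancy, INHA was 2.35-fold and FST 2.10-fold and 2.47-fold higher in the late pregnant ovary. These 3 probe sets were the members at 2-fold or more there, and 1.5% of all measured probe sets were higher by as much and 2.71% lower. The early pregnant array enters both this comparison and the one with the non-pregnant array, so they are not independent.

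The probe sets of NR5A2 gave different directions over the stages of the ovary. The 3 brightest read lowest at early pregnancy, with 3572, 1834 and 929 there. The fourth instead read 172, 321 and 391 in the non-pregnant, early pregnant and late pregnant ovary, a log2 ratio of 0.90 at early and 1.18 at late pregnancy over non-pregnant. The dimmest went the same way, with a non-pregnant value under the floor. A stage difference of NR5A2 in ovary therefore depends on the probe set read.

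Cell type markers and array quality also differed over the ovary arrays, and their part in the early pregnant values was not tested. The summed smooth muscle markers read 49382, 61915 and 38798 in order of stage, highest where INHA and FST were lowest, and each of the 9 but ACTA2 read highest there. The luteal and granulosa list summed to 83842, 102269 and 107747 and the oocyte list to 1113, 764 and 727. The higher luteal and granulosa sum at early pregnancy came mostly from RLN2, the hormone relaxin, and PTGFR, the prostaglandin F receptor. LHCGR, with 2480 and 3762, and INSL3, with 3994 and 4552, also read higher on the early pregnant than on the non-pregnant array. RLN2 read 11029, 31900 and 29660, and PTGFR 6982, 14853 and 16721, whereas STAR, HSD3B1, CYP11A1, FSHR and AMH read lower at early pregnancy than in the non-pregnant ovary. The granulosa cell gene FSHR read 337, 296 and 281, and AMH was highest in late pregnancy. The actin ratio of 3′ to 5′ signal was 3.38, 2.56 and 3.22, lowest on the early pregnant array, and the GAPDH ratio was 2.33, 1.99 and 1.51. CYP19A3, an aromatase gene whose near-identical relatives may share its signal, read 8691, 5059.9 and 7198, and LRP8 was 2.96-fold lower in early pregnant than in non-pregnant ovary.

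**Figure D3:**
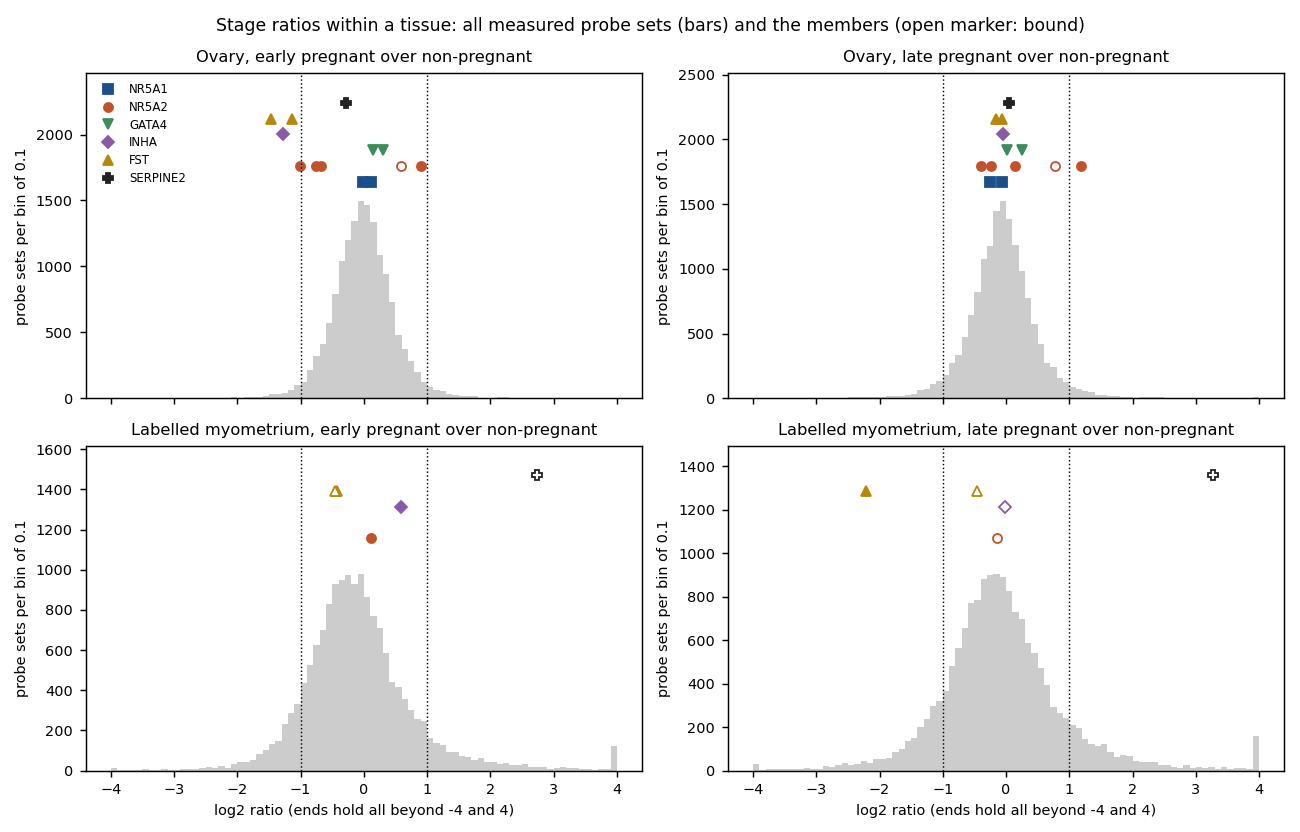
Log2 ratios of the early and of the late pregnant array over the non-pregnant array of the same tissue, with all measured probe sets as bars (number per bin of 0.1) and the member probe sets as markers above them, open where 1 of the arrays lay under the floor. In the early pregnant ovary INHA and both FST probe sets lie left of the 2-fold line, and on the uterine arrays SERPINE2 lies right of it at both stages and FST left of it in late pregnancy.

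On the uterine arrays, SERPINE2 read higher at both pregnant stages than on the non-pregnant array. The brighter FST probe set was 2-fold or more lower than non-pregnant on the late pregnant array alone. SERPINE2 was at least 6.64-fold higher on the early pregnant and at least 9.68-fold higher on the late pregnant array than on the non-pregnant one. The brighter FST probe set read 383, 286 and 82.0, so that it was 4.66-fold lower on the late pregnant than on the non-pregnant array and 3.49-fold lower than on the early pregnant array. Its late pregnant value lay just above the floor, and at early pregnancy it was 1.34-fold lower than on the non-pregnant array. The second FST probe set lay above the floor on the non-pregnant array alone, with 112, 50.5 and 23.2. INHA read 82.1, 124 and 64.8, all near the floor, and the brightest NR5A2 probe set read 90.5, 97.9 and 27.7, the last under the floor. NR5A1, GATA4 and the other 4 NR5A2 probe sets lay under the floor on all 3 arrays.

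At early pregnancy 1 of the 5 member probe sets measured was 2-fold or more higher than on the non-pregnant array, and 8.76% of all 15836 measured probe sets were, with 10.3% lower. At late pregnancy 1 of 5 was higher and 1 lower, against 10.9% and 12.6% of 16013. Between late and early pregnancy 1 of 4 was lower, against 5.62% lower and 5.87% higher of 15537. With so few members measured, these shares say little beyond the genes named. The medians of all measured probe sets lay at -0.17 in the early and -0.14 in the late comparison on the log2 scale, so the values of SERPINE2 and FST stand against a slightly lowered middle.

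Some markers of trophoblast and of steroid-producing cells were higher on the same uterine arrays as SERPINE2, and their part in its values was not tested. Of 13 listed trophoblast markers 6 had a probe set, and their summed signal was 683, 23741 and 37911 in order of stage. PAG6 made up most of it on both pregnant arrays, and HAND1, a trophoblast factor, read 50.4, 449 and 874. GCM1, a factor of placental trophoblast, read 88.7, 86.2 and 78.2, and PEG10, an imprinted placental gene, 351, 435 and 8302. TFAP2C lay above the floor on the pregnant arrays alone, and HSD17B1 at early pregnancy alone. The sum on the ovary arrays, 5596 to 12545, came mostly from HSD17B1, which ovary expresses as well. The luteal and granulosa list summed to 678, 12375 and 16839 on the uterine arrays. STAR, which carries cholesterol into mitochondria, read 13.2, 5573 and 6907 there. CYP11A1 read 22.1, 1502 and 4452, HSD3B1 64.1, 3101 and 1822, and PTGFR 336, 1320 and 3436. The aromatase gene CYP19A1 lay above the floor at early pregnancy alone, with 596, and RLN2 read 118.5, 150 and 75.4. LHCGR, INSL3, FSHR, AMH and FOXL2 lay under the floor on all 3. The uterine epithelium list summed to 57808, 117450 and 138759, and the secreted or enzyme genes ACP5, SPP1 and SLPI carried the higher sums. ACP5 read 559, 21477 and 31717, while the keratin KRT8 read 9978, 4496 and 8211 and EPCAM 10256, 10845 and 9667. On the early and late pregnant uterine arrays NR5A1 and GATA4 lay under the floor, which does not show absence. There GATA6 read 504 and 314, and the brightest NR5A2 probe set 97.9 and 27.7. On the ovary arrays, where NR5A1 and GATA4 lay above the floor, STAR read 23451 to 28846. A link between these genes and STAR was not tested.

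**Figure D4:**
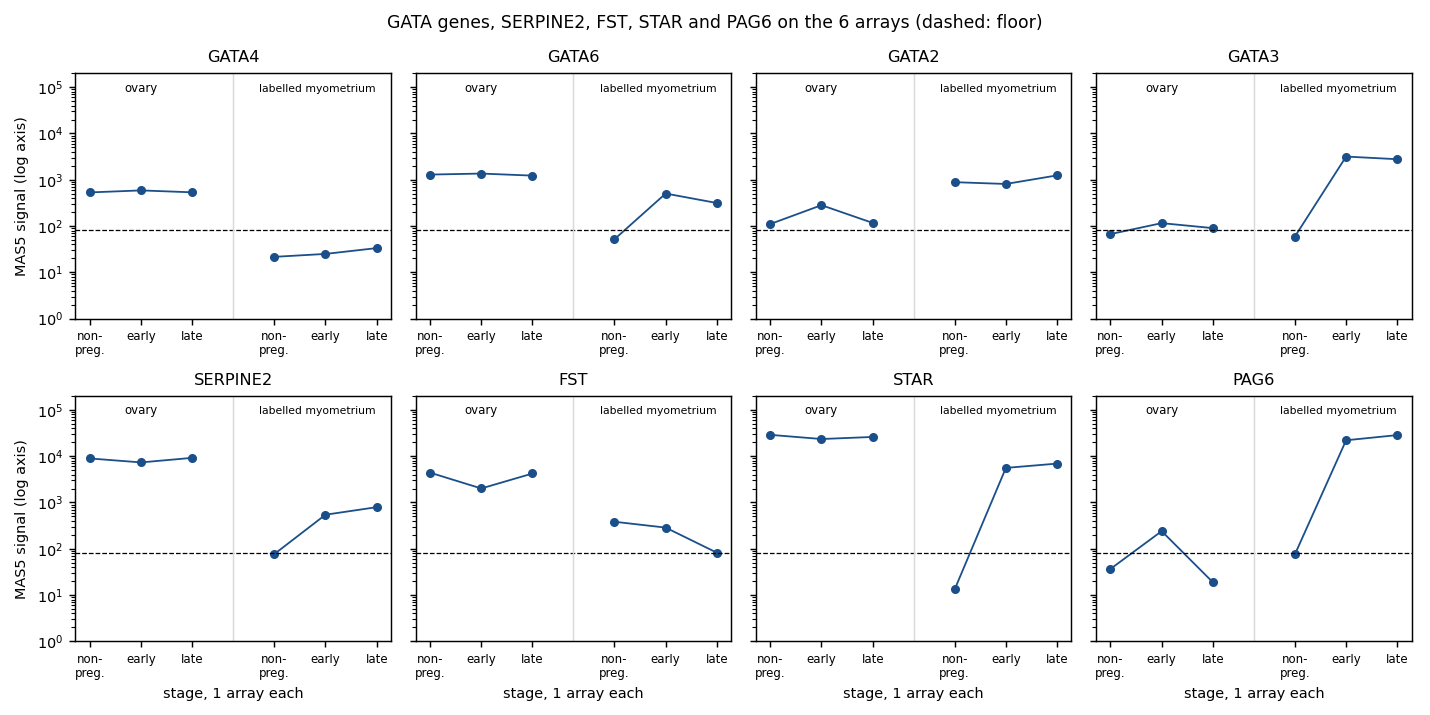
MAS5 signal (log axis) of 4 GATA genes, SERPINE2, FST, STAR and the trophoblast gene PAG6, brightest probe set each, on the 3 ovary arrays and, to their right, the 3 arrays labelled myometrium, with the floor dashed. GATA3, SERPINE2, STAR and PAG6 lie under the floor on the non-pregnant uterine array and above it on both pregnant ones, while GATA4 stays under it on all 3.

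No stage change shared by the tissues passed the test for any of the 13 probe sets. In limma's additive fit, 0 of 15882 probe sets passed in each contrast, a share of 0%. At an unadjusted p under 0.05, 0 of the 13 were reached in each contrast, against 686 of all probe sets for early over non-pregnant, 964 for late over non-pregnant and 261 for late over early. The lowest limma adjusted p of a member was 0.822 for early over non-pregnant, 0.711 for late over non-pregnant and 1.0 for late over early. A stage effect that differs between the tissues has no residual degrees of freedom in this design and was not tested.

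Genes listed as targets of NR5A1, NR5A2 and GATA4 included many with a higher level in ovary, and whether these factors act on them here was not tested. Of 25 listed steroidogenic targets, 18 were tested, and 10 were higher in ovary while 8 did not pass. Of all tested probe sets, 2.84% were called higher in ovary. The 10 include SERPINE2, itself 1 of the 6 genes described. They also include INSL3, LHCGR, FSHR and MRAP, whose uterine values all lay under the floor. These were tested through ovary arrays alone, so only a call toward ovary was possible for them. The list was chosen with earlier results of these data known, so its count is no independent check. The median log2 difference was 3.74, against 0.01 for all tested probe sets. CYP19A3 differed by at least 6.16, INSL3 by at least 5.64, HSD17B1 by at least 5.60 and LHCGR by at least 5.26, all with uterine values raised to the floor, so their order cannot be read. INSL3 is a peptide hormone of theca and luteal cells, and HSD17B1 makes oestradiol from oestrone. STAR, HSD3B1, which makes progesterone, and FDX1, which passes electrons to the side-chain cleavage enzyme, differed by 4.15, 4.37 and 1.10 and did not pass, the first pair with the non-pregnant uterine value raised to the floor. For STAR, HSD3B1 and CYP11A1, the side-chain cleavage enzyme, the log2 ratio of the early pregnant over the non-pregnant uterine array was at least 6.09, at least 5.25 and at least 4.20.

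**Figure D5:**
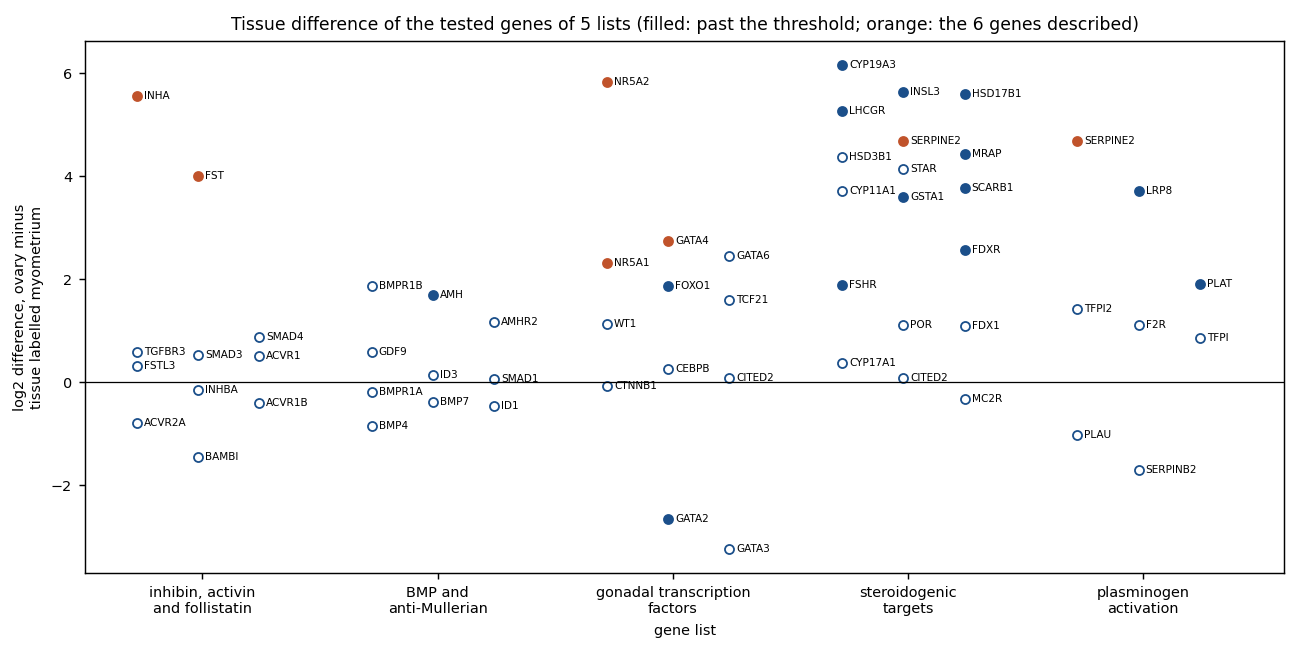
Log2 difference between ovary and tissue labelled myometrium for each tested gene of 5 lists, brightest probe set each, filled where the limma test passed and orange for the 6 genes described. INHA and FST stand apart from the other members of the inhibin, activin and follistatin list, which lie between -1.45 and 0.88, and GATA2 is the filled point below 0.

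The genes whose signal over the 6 arrays was most like that of a member were sought by Pearson's r of the log2 signal, raised to the floor, among 5672 other named genes. All 6 points share the tissue difference, and r is given as a description. NR5A1, GATA4, MRAP, INSL3 and LHCGR had every uterine value raised to the floor. Between such genes a high r is built in where ovary signals vary little, so the partners named are not particular to them. NR5A1 was most like MRAP (r = 0.9998), INSL3 (0.9997) and GATA4 (0.9994). GATA4 was most like INSL3 (0.9999), NR5A1 and LHCGR (0.9989). NR5A2 was most like CYP19A3 (0.9976), MRAP and INHA (0.9965), and INHA was most like CYP19A3 (0.9966), NR5A2 and RAP1GDS1 (0.9903). FST was most like MRPL39 (0.991), SELENON (0.9879) and TPM3 (0.9868), and SERPINE2 most like PKDCC (0.9974), SCARB2 (0.9965) and ACADS (0.9883). Between members, r ranged down to 0.77 for FST with SERPINE2, which read in opposite orders over the uterine arrays.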

How the data were processed

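Per the submitters' processing notes the authors made the deposited intensity values with MAS5; its version and settings are not stated there. The mean after trimming 2% at each end was 500.1 on every array, so the authors had scaled the arrays. Per the labels' protocols, total RNA was extracted with Trizol and 6 ug gave biotin-labelled cRNA. Of the probe sets, 124 controls were left out and 23999 kept, of which 10069 had 1 gene symbol, 198 several and 13732 none. The identifiers of all 13 member probe sets matched RefSeq gene records of the same symbol (Sscrofa11.1 annotation). Gene positions were not analysed here.

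Signals under the floor of 81.7 were raised to it and log2 was taken. limma 3.58.1 in R 4.3.3 was fitted to tissue and stage with an intensity trend, with 2 residual degrees of freedom. A fold with uterine values at the floor is a lower bound. Other steps used Python 3.11.15 with pandas 2.3.3. The number of arrays limits the precision.

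The members and lists were chosen with earlier results of these data known. Named were all member probe sets and, from each of 5 lists, up to 4 genes past the threshold by size, up to 3 others by brightness and those at 2-fold or more at both pregnant stages of a tissue. Each list gene and each likeness used the brightest probe set. INHBA, INHBB and NR0B1 were named after their values were seen, and the other genes named are cell type markers. Alternatives were other floors (33.7 and 246.2), a pseudocount of 16, quantile normalization, median centring, no filter, no trend, no stage term and fewer arrays.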

Additional observations from a re-analysis of the deposited data

Results flagged for a closer look

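Between early pregnant and non-pregnant arrays, INHA had a log2 ratio of -1.28 in ovary and 0.59 in the uterine tissue, a difference of -1.88, and was listed because the directions were opposite. SERPINE2 did likewise, with -0.28 in ovary and at least 2.73 in the uterine tissue, so that the difference was -3.02 or lower. Between late and early pregnant arrays, the ratios of INHA were 1.24 and at most -0.60 (difference at least 1.84), those of the brighter FST probe set 1.07 and -1.80 (difference 2.88), and those of the brightest NR5A2 probe set 0.82 and at most -0.26 (difference at least 1.09). Each is 1 array against 1 array in each tissue, and the difference between the tissues was not tested. The INHA and NR5A2 values on the uterine arrays lay between 27.7 and 124, around the floor of 81.7.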

How the results depend on the processing

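Every tissue difference of the 13 probe sets kept its direction toward ovary under each alternative that tested it. For 8 of the 13, all uterine signals lay under the floor as reported and the probe set was tested through ovary arrays alone. Where their deposited signals were raised to that floor or the higher one, no opposite direction was possible. Those fits therefore cannot check the direction of these 8. By limma, 10 of 13 passed, 11 with the lower floor, 7 of 10 tested with the higher floor, and 10 with the pseudocount, either normalization, no intensity trend or no stage term. Without the filter on low signals 0 passed (12 at an unadjusted p under 0.05), as did 0 of all probe sets in either direction. Leaving out the arrays of 1 stage, 0 to 7 of the 13 passed: 6 without the non-pregnant arrays, 0 without the early pregnant arrays (11 at an unadjusted p under 0.05) and 7 without the late pregnant arrays. Those fits have fewer residual degrees of freedom. Over all probe sets, 0 to 138 were then higher in ovary and 0 to 260 in the uterine tissue, with 0 in either direction without the early pregnant arrays. FST did not pass without the non-pregnant arrays, and NR5A1 did not pass there or without the late pregnant arrays. Without both pregnant uterine arrays, an alternative added after seeing the data that takes the lone uterine array to vary like ovary, 5 of the 13 passed, from NR5A1, NR5A2, GATA4 and SERPINE2, and 931 of all probe sets were higher in the uterine tissue. Counts over all probe sets were 451 in ovary and 354 in the uterine tissue as reported, 298 and 179 with the higher floor, and 715 in ovary with no stage term. Without the filter, 4 and 3 of all probe sets passed for shared stage changes, early and late over non-pregnant. With log2 signals averaged over all probe sets of a gene, the difference was 1.87 for NR5A1, 3.40 for NR5A2, 1.52 for GATA4 and 2.72 for FST.

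Stage counts of the members moved with the floor. In ovary, late over non-pregnant, 2-fold was reached by 1 probe set as reported, 2 with the lower floor or the pseudocount and 0 with the higher floor. On the uterine arrays, early over non-pregnant gave 2 with the lower floor. Late over non-pregnant gave 4 with the lower floor or the pseudocount and 1 with the higher floor, and late over early gave 4 with the lower floor, 2 with the pseudocount and 0 with the higher floor. The share of all measured probe sets at these settings is not given here, so these member counts cannot be set against it. With the higher floor the log2 ratio of SERPINE2 on the uterine arrays was 1.14 or more at early and 1.68 or more at late pregnancy, and that of FST at late pregnancy was -0.64. The causes were not tested beyond the construction of the floors. The additive fit already sets arrays of the same stage against each other, and the fit with no stage term is its unpaired form. Signals near the floor limit what NR5A1, GATA4 and NR5A2 show in the uterine tissue.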
